A study of Mus musculus with 36 samples.

Results

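In EV libraries of mouse fetal neural stem cell (NSC) cultures, 8 genes, Tmem132e, 1500009L16Rik, Rhbdl2, Pbld2, Med27, Nfatc1, Cnnm3 and Otog, were read at a few counts in some libraries and at up to 55473 counts in others. They were chosen from 40205 features in the count files because their level varied by orders of magnitude between EV libraries while their cell level was low. The EV spread, the low cell level and the EV-to-cell contrast are therefore descriptions here and carry no test. The low cell level did not hold for every gene: Pbld2 exceeded 100 counts per 1000000 (CPM) in 5 cell libraries and Med27 in 1.

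Extracellular vesicles (EVs) are membrane-bound particles that cells release with a cargo of protein and RNA. Much of the RNA recovered from EVs is fragmentary, and the mix of transcripts differs from that of the cells of origin. NSCs of the fetal cortex release EVs into their surroundings, and ethanol is a teratogen that acts on these cells. Of the 8 genes, 3 encode membrane proteins: Tmem132e of the TMEM132 family, Rhbdl2, an intramembrane protease of the rhomboid family, and Cnnm3 of the CNNM family of magnesium transport mediators. Med27 is a subunit of Mediator, the complex that links transcription factors to RNA polymerase II, and Nfatc1 is a transcription factor activated through calcineurin. Pbld2 encodes a protein with a phenazine biosynthesis-like domain, Otog encodes otogelin of the acellular membranes of the inner ear, and 1500009L16Rik is known by its clone name.

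Dorsal telencephalon of fetuses of C57BL/6J mice, of the Ai14 reporter line by the study's methods, at gestational day 12.5 was pooled by sex within each of 3 pregnancies (sets 3, 4 and 5), which gave a female (3F, 4F, 5F) and a male (3M, 4M, 5M) neurosphere culture per pregnancy, each from pooled littermates. Each culture was grown for 5 days at 0 (control), 120 or 320 mg/dL ethanol, with no other agent, and gave 1 EV and 1 cell library per dose, 18 of each. Each library comes from 4 flasks of a passaged culture, so the replicates of a sex and dose are the 3 pregnancies. Totals were 0.959 to 5.51 M counts in EVs and 26.6 to 55.3 M in cells (M stands for 1000000). Of the EV libraries, 6 had less than 2 M counts (3F control, 3M at 120 and 320 mg/dL, and 4F at all 3 doses) and the other 12 had 2.59 M or more. Of 8 neural stem cell markers, 7 had a median of 10 CPM or more in cells, from Pax6 and Hes1 to Nes, Vim and Fabp7, while Sox2 was listed at 0 in every library. The same held for 1 of 4 neuronal markers (Map2) and 3 of 5 of the astrocyte and oligodendrocyte lineage. None of 4 microglial, 3 endothelial and 3 blood markers had a median above 0.776 CPM.

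CPM values were scaled by TMM over all 36 libraries, and "high" stands for 100 CPM or more. By that limit 49 of 144 combinations of gene and EV library were high, and every EV library had at least 1 of the 8 genes high.

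**Figure D1:**
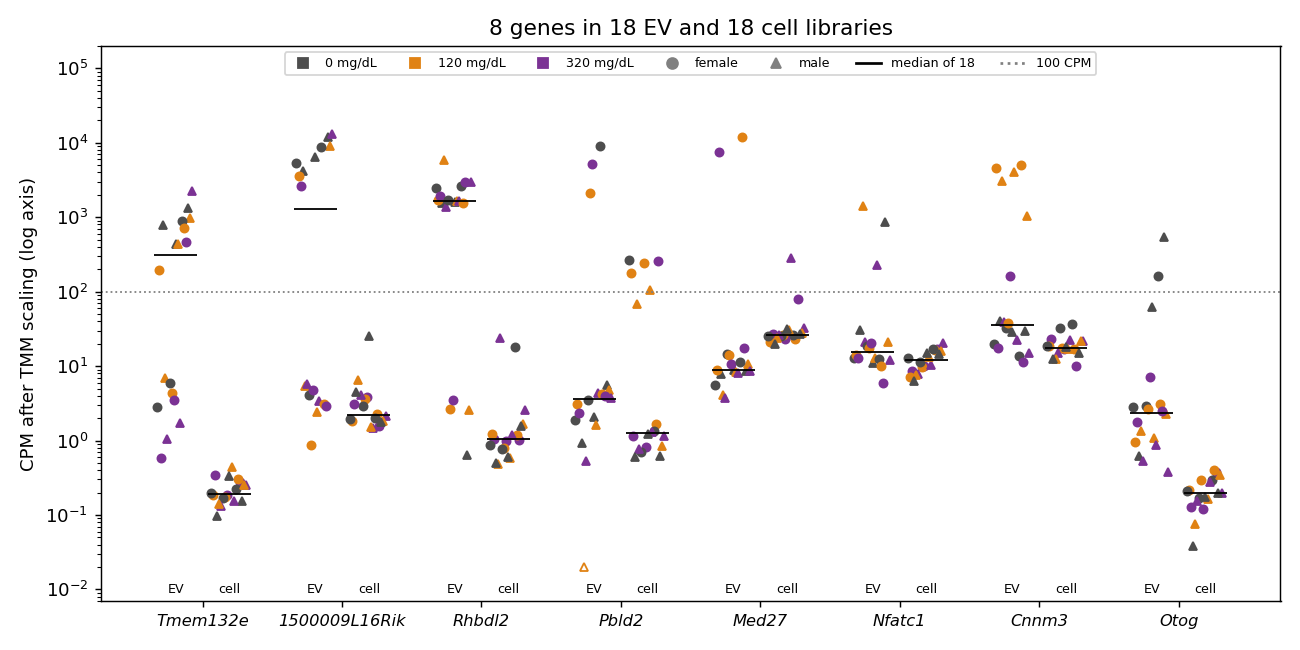
CPM after TMM scaling on a log axis for the 8 genes, with 18 EV libraries (left) and 18 cell libraries (right) of each gene as points, coloured by ethanol dose and shaped by sex. Black bars are medians, the dotted line is 100 CPM, and the open symbol is Pbld2 in 3M at 120 mg/dL, which had 0 counts. The EV points of Tmem132e, 1500009L16Rik, Rhbdl2, Pbld2 and Med27 fall into a high and a low band with a gap of 28.5-fold or more.

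Tmem132e, on chromosome 11 (GRCm39, bases 82278268 to 82338461, plus strand), was high in 10 EV libraries, with 808 to 6250 counts (194.5 to 2226 CPM), and had 2 to 10 counts in the other 8. No library lay between 6.82 and 194.5 CPM, a gap of 28.5-fold. In set 5 all 6 libraries were high: 5M had 6250, 3038 and 5930 counts at 0, 120 and 320 mg/dL, and 5F had 2349, 2575 and 934. In set 3 only 3M control (2495 counts) and 3F at 120 mg/dL (808) were high, and in set 4 only 4M control (1691) and 4M at 120 mg/dL (1617). Culture 4F had 10, 5 and 3 counts and was low at every dose. Cells had 5 to 19 counts of Tmem132e per library (0.0956 to 0.439 CPM), so the lowest EV value, 0.587 CPM, exceeded every cell value under TMM. With library totals the lowest EV value, 0.471 CPM from 2 counts in 3F at 320 mg/dL, was below the highest cell value of 0.519 CPM in 4M at 120 mg/dL.

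1500009L16Rik, on chromosome 10 (bases 83558603 to 83598627, plus strand), reached the largest share of an EV library among the 8 genes. In 5M control it had 55473 counts, 1.01% of the library (95% Wilson interval 1.005% to 1.02%, counting error only). It was high in 9 EV libraries, with 5770 to 55473 counts (2603 to 13164 CPM), and had 1 to 12 counts (0.872 to 5.79 CPM) in the other 9, a gap of 449.7-fold. The control libraries of 3F (5770), 3M (13304), 4M (24902), 5F (23344) and 5M (55473) were high, and that of 4F had 7 counts. At 120 mg/dL 3F (14768) and 5M (28072) were high, and at 320 mg/dL the same cultures, with 8863 and 35069 counts. 3M, 4M and 5F thus went from 13304 counts or more in control to 4 to 12 counts at both doses. In cells the gene had 47 to 1312 counts, with the highest value, 25.6 CPM, in 4M control and the next, 6.51 CPM, in 3M at 120 mg/dL.

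Rhbdl2, on chromosome 4 (bases 123681552 to 123723993, plus strand), was high in 14 EV libraries and low in 4. The high libraries had 2573 to 7953 counts, a narrower range than those of Tmem132e, 1500009L16Rik and Cnnm3, and the low ones had 3 to 8. The low libraries were 5M control (3 counts), 5M at 120 mg/dL (8), 4F at 120 mg/dL (3) and 4F at 320 mg/dL (3). In 5M the gene thus had 7953 counts at 320 mg/dL after 3 and 8, and in 4F it had 2887 counts in control before 3 and 3. Cells had 25 to 92 counts in 16 libraries, with 1246 counts (23.7 CPM) in 3M at 320 mg/dL and 963 counts (17.8 CPM) in 5F control.

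Pbld2, on chromosome 10 (bases 62858885 to 62894598, plus strand), was high in 3 EV libraries, all from females: 5F control with 23614 counts (8968 CPM), 4F at 320 mg/dL with 4344 (5153 CPM) and 4F at 120 mg/dL with 2446 (2133 CPM). The other 15 EV libraries had 0 to 26 counts. The 0 was in 3M at 120 mg/dL, which with a total of 0.959 M counts allows up to 3.13 CPM of the total (3 counts). In cells Pbld2 also split into bands, with 4588 to 16222 counts in 6 libraries and 25 to 73 in the other 12. The 6 were 3F control (16222 counts, 263.9 CPM), 5F at 320 mg/dL (12172, 257.7 CPM), and at 120 mg/dL 4F (13900, 240.2 CPM), 3F (5777, 177.8 CPM), 4M (4588, 105.9 CPM) and 3M (5399, 68.7 CPM). In such bulk libraries a change in the number of cells with a transcript and a change in RNA per cell cannot be told apart. Hnrnph3, on the opposite strand at this locus, had 1 to 43 counts in EVs.

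Med27, on chromosome 2 (bases 29236824 to 29414805, plus strand), was high in 2 EV libraries. It had 43451 counts (12094 CPM) in 5F at 120 mg/dL and 25358 counts (7447 CPM) in 3F at 320 mg/dL, both female, at different doses and from different pregnancies. The other 16 EV libraries had 3 to 40 counts (3.68 to 17.7 CPM), below every cell library. Cells had 629 to 9034 counts with a median of 26.5 CPM, and 2 cell libraries stood above the rest: 4M at 320 mg/dL with 9034 counts (280.2 CPM) and 5F at 320 mg/dL with 3815 counts (80.8 CPM).

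Nfatc1, on the minus strand of chromosome 18, was high in 3 EV libraries, all male, 1 of each pregnancy and 1 at each dose. These were 5M control with 3940 counts (850.4 CPM), 3M at 120 mg/dL with 1047 (1427 CPM) and 4M at 320 mg/dL with 798 (228.4 CPM). The other 15 EV libraries had 12 to 99 counts (5.90 to 30.9 CPM), which overlapped the cells at 202 to 919 counts (6.39 to 20.6 CPM). No cell library of Nfatc1 stood apart.

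Cnnm3, on chromosome 1 (bases 36550884 to 36567318, plus strand), had its high EV values at 120 mg/dL. At that dose 3F had 18891 counts (4547 CPM), 5F 18005 (5012 CPM), 4M 14976 (4014 CPM), 5M 3201 (1031 CPM) and 3M 2251 (3069 CPM), while 4F had 44 counts (38.4 CPM). The 6 control libraries had 21 to 136 counts (13.7 to 40.2 CPM), and the 6 libraries at 320 mg/dL had 23 to 138 (11.3 to 163.7 CPM). The one library at 320 mg/dL above 100 CPM, 4F, had 138 counts, 89.1 CPM by library total, so its place above the limit came with the TMM scaling. In cells Cnnm3 had 476 to 1991 counts (10.1 to 36.8 CPM), and its cell values at 120 mg/dL (12.4 to 21.7 CPM) lay within those of the controls (12.3 to 36.8 CPM) at both ends. Ankrd23, on the opposite strand at this locus, had 0 to 14 counts in EVs.

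Otog, on chromosome 7 (bases 45890411 to 45960858, plus strand), had its high EV values in control libraries. It had 2523 counts (544.6 CPM) in 5M control and 430 (163.3 CPM) in 5F control, and 243 (62.1 CPM) in 4M control fell under the limit. The other 15 EV libraries, 3 controls among them, had 1 to 11 counts. Cells had 2 to 19 counts of Otog per library (0.0382 to 0.401 CPM) and did not stand apart at any dose.

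**Figure D2:**
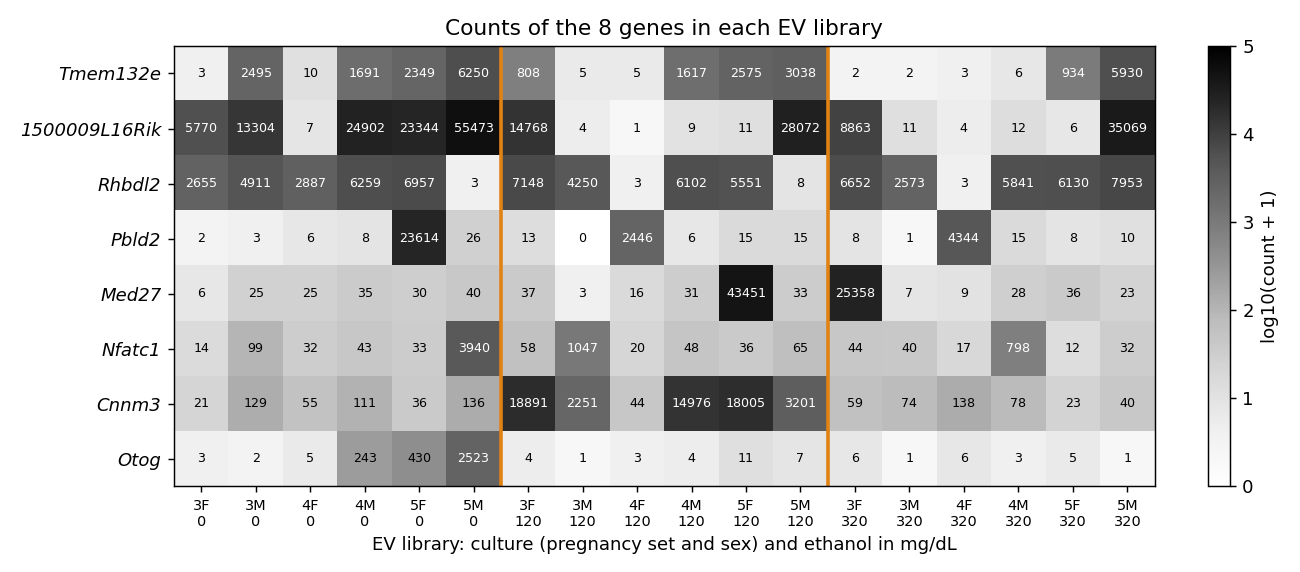
Raw counts of the 8 genes (rows) in the 18 EV libraries (columns), ordered by dose and then by culture, with darker cells for higher log10(count + 1). Cnnm3 is at 2251 counts or more in 5 of 6 columns at 120 mg/dL and at 138 or fewer elsewhere, and Pbld2, Med27 and Nfatc1 stand out in 3, 2 and 3 columns.

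Against the other genes in EVs, the spread was of an uncommon kind. Of 12252 genes with enough counts in EVs, 65 (0.531%) reached 100 CPM in some library and at least 30 times their own median, and the median gene had a highest value 1.77 times its median. Pbld2 was 2467 times, Med27 1355 times, Otog 231.2 times, Cnnm3 142 times and Nfatc1 90.9 times its median. Tmem132e (7.10 times), 1500009L16Rik (10.1 times) and Rhbdl2 (3.50 times) fell outside those 65, since they were high in 9 or more libraries and so had a high median. By edgeR's dispersion, which measures the spread between libraries left after additive terms for sex and dose, 1500009L16Rik ranked 2, Pbld2 9, Tmem132e 12, Med27 16, Rhbdl2 26, Otog 56, Nfatc1 64 and Cnnm3 218 of 12252. The 65 genes were not spread evenly over the libraries, of which each had 5 to 22 of them at 100 CPM or more.

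**Figure D3:**
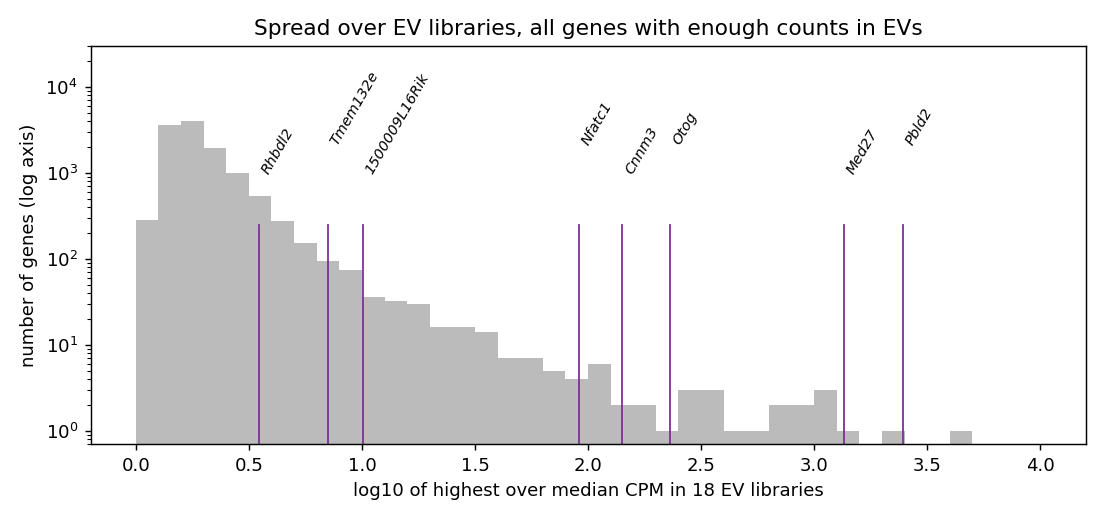
Number of genes (log axis) by log10 of the highest over the median CPM in 18 EV libraries, for 12252 genes. Lines mark the 8 genes. Rhbdl2, Tmem132e and 1500009L16Rik lie in its upper part at 3.50, 7.10 and 10.1 times (ranks 1061, 308 and 194), and Med27 and Pbld2 near its end at 1355 and 2467 times.

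Whether the 8 genes were high in the same libraries was read from the 28 pairs. In 15 EV libraries 2 or more of the genes were high, with 5 genes in 5F control, 4 in each of 5M control, 3F at 120 mg/dL and 5F at 120 mg/dL, 3 in 7 libraries, 2 in 4 and 1 in 3. The 3 libraries with 1 gene were 3M at 320 mg/dL and 4F control (Rhbdl2) and 4F at 120 mg/dL (Pbld2). Tmem132e and 1500009L16Rik were high together in 7 libraries, 70% of those of Tmem132e and 77.8% of those of 1500009L16Rik. Tmem132e and Rhbdl2 shared 8 libraries (80% and 57.1%). Of all 18 EV libraries, Tmem132e was high in 10, 1500009L16Rik in 9 and Rhbdl2 in 14. The 80% and 57.1% thus lay near the shares over all libraries. Among 5 pairs no library was shared: Pbld2 with Med27 and with Nfatc1, Med27 with Nfatc1 and with Otog, and Cnnm3 with Otog. These genes were high in 2 (Med27, Otog), 3 (Pbld2, Nfatc1) or 6 (Cnnm3) libraries, so an unshared pair says little. Both high libraries of Otog were also high for Tmem132e and 1500009L16Rik, and both of Med27 were high for Rhbdl2. With 2 high libraries each, no link between the genes can be read from this. Together the 8 genes took 0.163% of the counts in 4M at 320 mg/dL (95% Wilson interval 0.159% to 0.167%) and 1.56% in 5F control (1.548% to 1.57%).

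Across pregnancies, Tmem132e was high in 2, 2 and 6 of 6 EV libraries of sets 3, 4 and 5, 1500009L16Rik in 4, 1 and 4, and Rhbdl2 in 6, 4 and 4. Nfatc1 (1 of 6 in each set) and Cnnm3 (2 of 6 in each set) were evenly placed. By sex, Pbld2 and Med27 were high in 3 and 2 of 9 female and in 0 of 9 male EV libraries, and Nfatc1 in 3 of 9 male and 0 of 9 female ones. Rhbdl2 (7 of 9 in each sex) and Cnnm3 (3 of 9 in each sex) were high as often in females as in males.

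By dose, Cnnm3 had a median EV level of 28.9 CPM in controls, 3541 CPM at 120 mg/dL and 19.8 CPM at 320 mg/dL. It was higher at 120 mg/dL than in the control of the same culture in 6 of 6 cultures. The difference on the log2 CPM scale was 5.13 to 8.51 in 5 of them and 0.25 in 4F. In 4F the counts fell from 55 in control to 44 at 120 mg/dL, and the higher CPM came with the smaller library total. Over all 12252 genes, 1.12% were higher in 6 of 6 cultures at 120 mg/dL. 1500009L16Rik had medians of 5872, 4.26 and 5.27 CPM at 0, 120 and 320 mg/dL and was lower at 120 mg/dL in 6 of 6 cultures, with log2 differences of -0.41 in 5M, -0.60 in 3F and -11.48 to -2.18 in the others, of which 4F (-2.18) rested on 7 and 1 counts. This was the case for 1.83% of all genes. Tmem132e was high in 4, 4 and 2 of 6 libraries at 0, 120 and 320 mg/dL, Rhbdl2 in 5, 4 and 5, and Otog in 2, 0 and 0. Since these EV values chose the genes, the counts by dose and sex are given without a test.

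The high libraries were then placed by EV library total. Tmem132e was high in 0 of the 6 libraries under 2 M counts and in 10 of the 12 larger ones. 1500009L16Rik was high in 1 of 6 and 8 of 12, and Otog in 0 of 6 and 2 of 12. Med27 was high in 0 of 6 and 2 of 12. The small libraries were not low for all genes: Rhbdl2 was high in 4 of 6 (10 of 12 larger ones), Pbld2 in 2 of 6 (1 of 12), Nfatc1 in 1 of 6 (2 of 12) and Cnnm3 in 2 of 6 (4 of 12). The highest share of Rhbdl2, 0.443% (95% Wilson interval 0.43% to 0.457%), was in the smallest library, 3M at 120 mg/dL. All 3 libraries of 4F are among the small ones, so culture 4F and a small total cannot be told apart. The 6 small libraries are all of sets 3 and 4 and none is of set 5, where Tmem132e was high in every library. Its difference between pregnancies was thus not separated from that between totals.

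**Figure D4:**
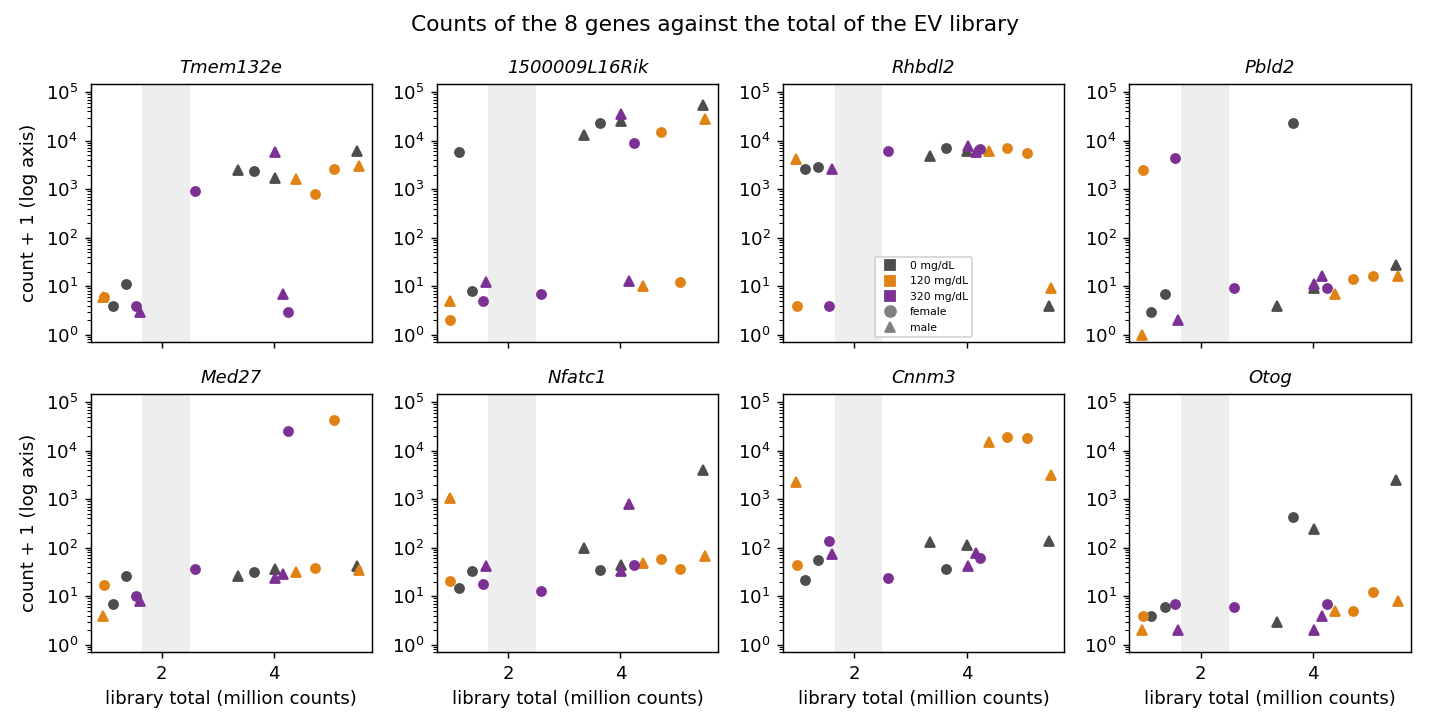
Counts plus 1 (log axis) of the 8 genes against the total of the EV library in M counts, 18 libraries a panel, coloured by dose and shaped by sex. The grey band holds no library. Tmem132e has no high point left of the band, whereas Rhbdl2, Pbld2, Nfatc1 and Cnnm3 have high points on both sides.

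Since the libraries of a gene fell into separate bands, log2 CPM was set against log10 total within bands of 6 or more libraries only, 11 bands in all. The bands were cut on the EV values that chose the genes, and CPM has the total in its divisor, so these r are descriptions with no p. For Rhbdl2 in its 14 high libraries Pearson's r was -0.455 and Spearman's rho -0.305. Within sets 3, 4 and 5 r was -0.624, -0.665 and -0.77 (6, 4 and 4 libraries), without the 2 libraries whose totals were farthest from the median it was 0.105, and with library totals in place of TMM it was -0.778. The counts of Rhbdl2 themselves, on a log10 scale, went with the total at r = 0.826. For Pbld2 in its 15 low libraries, with 26 counts at most, r was 0.652 and rho 0.657, r was 0.459 without the 2 farthest, and within sets 3, 4 and 5 it was 0.689, -0.429 and 0.671. For Tmem132e in its 8 low libraries, with 2 to 10 counts, r was -0.768 and rho -0.857. The other 8 bands had r from -0.327 to 0.385.

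The genes were chosen for a low cell level, so few high values in the cells of origin follow from that choice. In cells 6 combinations of gene and library were at 100 CPM or more, Pbld2 in 5 libraries and Med27 in 1. With so few, the overlap of high values cannot tell whether EV and cell levels are linked, and it is given as a description. Of the 49 high combinations in EVs, 1 was also high in the cell library of the same culture and dose, Pbld2 in 4F at 120 mg/dL, with 2446 EV and 13900 cell counts. In the other 4 cell libraries with Pbld2 above 100 CPM the matched EV library had 2 to 13 counts. In 5F control, where EVs had 23614 counts of Pbld2, cells had 73. The cell library with 9034 counts of Med27, 4M at 320 mg/dL, was matched by an EV library with 28. The 2 cell libraries with the most Rhbdl2, 3M at 320 mg/dL and 5F control, were matched by EV libraries of 1354 and 2642 CPM. The cell library with the most 1500009L16Rik, 4M control, was matched by one of 6365 CPM. The next for 1500009L16Rik, 3M at 120 mg/dL with 512 cell counts, was matched by an EV library with 4. Rhbdl2 was high in 14 and 1500009L16Rik in 9 of the 18 EV libraries. Over the 18 pairs of EV and cell libraries, r of log2 CPM was 0.0475 for Rhbdl2 and 0.0621 for 1500009L16Rik.

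**Figure D5:**
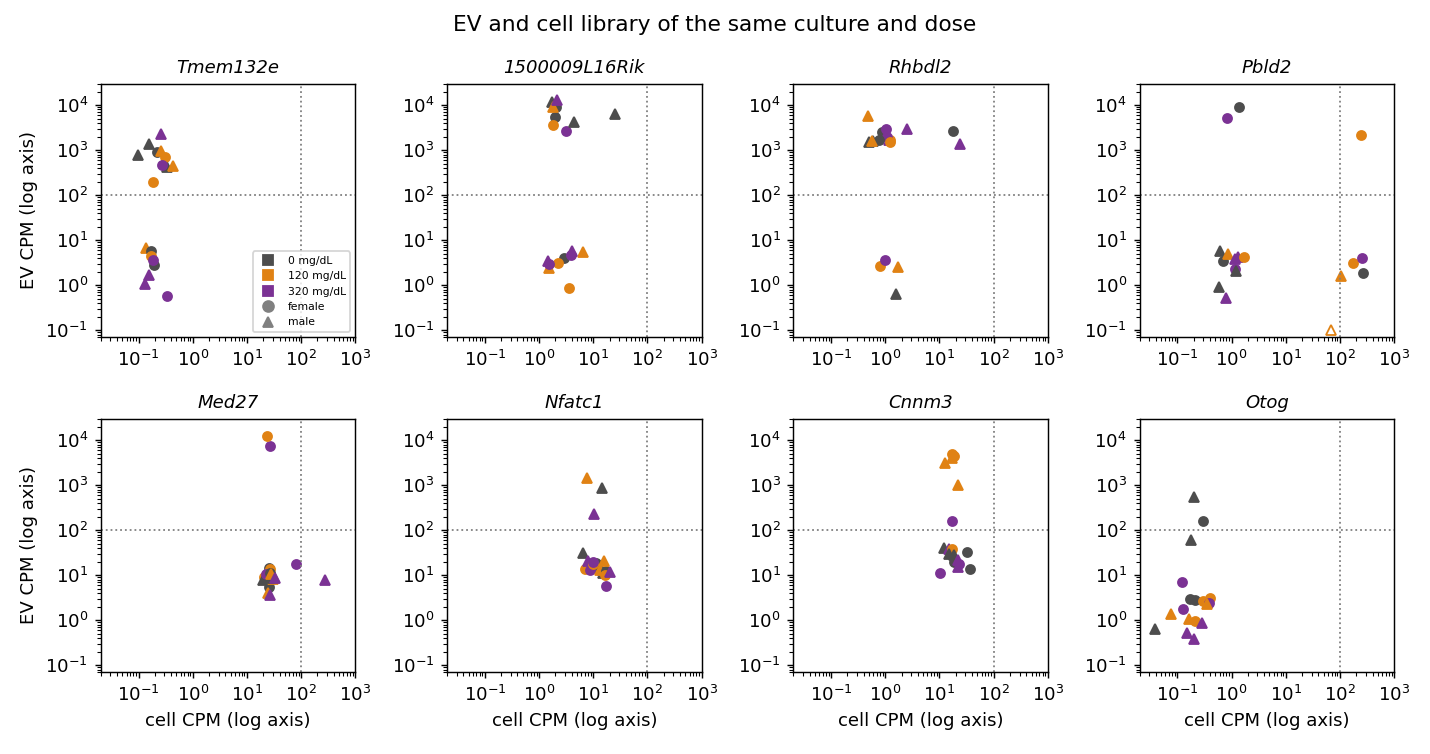
EV CPM against cell CPM (log axes) for the 18 pairs of a culture and dose, 1 panel a gene, with dotted lines at 100 CPM and an open symbol for 0 counts in EVs. One point, Pbld2 in 4F at 120 mg/dL, lies beyond both lines. The EV bands of Tmem132e, 1500009L16Rik and Rhbdl2 stand over overlapping ranges of cell CPM.

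Over the 6 cultures, with log2 CPM averaged over doses, the EV and cell levels of Otog had r = 0.939 and rho = 1, given as a description since both levels entered the choice of the genes. The r was 0.883 without the 2 cultures farthest from the median, 0.916 with library totals and 0.67 in control libraries alone. Over the 18 pairs of EV and cell libraries of a culture and dose, r for Otog was 0.203. The 6 cultures are 2 per pregnancy, both high EV libraries of Otog are from set 5, and cell libraries held 2 to 19 counts of it. For the other 7 genes r ran from -0.74 (Cnnm3) to 0.438 (Tmem132e).

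The fitted log2 fold change of EVs over cells, with terms for sex and dose, was 10.88 (SE 1.01) for Tmem132e, 9.66 (SE 1.22) for 1500009L16Rik, 9.32 (SE 0.99) for Rhbdl2 and 5.67 (SE 0.94) for Otog. It was 2.34 (SE 0.71) for Nfatc1, 2.33 (SE 0.72) for Cnnm3, 2.29 (SE 1.66) for Pbld2 and 1.41 (SE 1.54) for Med27. This fit took the 36 libraries as independent, with no term for culture or pregnancy, so its SE do not reflect the pregnancies as replicates. In the same fit edgeR called 81.8% of 17758 genes (adjusted p under 0.05), 38.1% higher and 43.7% lower in EVs. The median over all genes was -0.14, and -0.65 with library totals. Medians and fitted means disagreed for Med27, whose EV median was 0.337 times its cell median and which was higher in EVs in 2 of 18 pairs. Its fold change was -1.62 with the EV and cell pair as a block, -0.62 without set 3 and -0.19 without set 5. That of Pbld2 was 0.42 with the block, -0.54 without set 4 and -0.19 without set 5. The block also gave lower values for Tmem132e (8.82), 1500009L16Rik (5.55), Otog (4.26), Cnnm3 (1.58) and Nfatc1 (0.69), with Rhbdl2 at 9.31. Without set 5 Tmem132e was at 8.40, 1500009L16Rik at 7.93 and Otog at 4.69. Nfatc1 had an EV median 1.29 times that of cells under TMM and 0.85 times with library totals.

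Cell libraries did not enter the choice by ethanol or sex, so these contrasts were tested there, over all genes with edgeR's quasi-likelihood test. The ethanol tests had the culture as a block, and the sex test had no block. None of the 8 genes passed at 120 or 320 mg/dL, where 0% of 18725 genes were called at either dose. At an unadjusted p under 0.05 there were 476 and 1575 genes, and DESeq2 called 4 and 107, none of the 8 among them. Pbld2 had the largest estimate at 120 mg/dL, 4.95 on the log2 scale (SE 2.34, adjusted p = 0.9998, DESeq2 adjusted p = 0.178). It was higher at 120 mg/dL in 5 of 6 cultures, going from 31 to 5399 counts in 3M, 25 to 13900 in 4F and 62 to 4588 in 4M, by under 0.5 on the log2 scale in 5F and 5M, and lower by 0.57 in 3F. At 320 mg/dL Pbld2 had 0.55 (SE 2.60, adjusted p = 0.977). Med27 had 1.01 at 320 mg/dL (SE 0.41, adjusted p = 0.534) and was higher in 5 of 6 cultures, by 3.16 in 4M and 1.61 in 5F. Rhbdl2 had -0.86 (SE 0.99) and 0.69 (SE 1.06) at 120 and 320 mg/dL, and 1500009L16Rik -0.58 (SE 0.58) and -0.64 (SE 0.59). Tmem132e, Nfatc1, Cnnm3 and Otog had estimates from -0.33 to 0.45. Cnnm3, whose EV values were high at 120 mg/dL, had -0.33 (SE 0.25, adjusted p = 0.9998) in cells at that dose and was lower in 4 of 6 cultures.

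Females and males were compared in cells on counts summed over the 3 doses, 3 cultures against 3. None of the 8 genes passed, against 7 of 20972 genes (0.0334%), with 1398 at an unadjusted p under 0.05 and 189 called by DESeq2. Pbld2 had 2.47 (SE 1.09, edgeR adjusted p = 0.754) in females over males and 1500009L16Rik -1.32 (SE 0.62, edgeR adjusted p = 0.768). On simulated counts this test recovered 0 of 200 genes changed 2-fold and 199 of 200 changed 64-fold, and no size between these was simulated. The ethanol tests recovered 178 and 181 of 200 at 2-fold, with 7 of 185 and 15 of 196 calls false. In these simulations the changed genes were picked at random, and each gene had a single mean with no difference between cultures. They do not tell what change could be seen in the 8 genes, where the SE for ethanol reached 2.34 and 2.60 for Pbld2.

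Relatives of the 8 genes are given by the same ratio of highest to median EV level. Of 57 relatives, 44 had enough counts in EVs and 0 of them reached 30 times their median, which at 0.531% of all genes sets them apart from no other genes. Tmem132a, Tmem132b, Tmem132c and Tmem132d stayed at 35.7 CPM or below in every EV library. Of 8 rhomboid relatives of Rhbdl2, Rhbdf1 alone passed 100 CPM, in 4 libraries and with a highest value 5.33 times its median. Among 32 other Mediator genes the ratio was 1.22 to 2.25 in the 27 with enough counts, and Med1, Med22 and the Mediator kinase gene Cdk8 passed 100 CPM. Cdk8 alone had 92262 to 884770 counts per EV library, with a median of 140531 CPM in EVs and 10335 CPM in cells. Where these reads fall within the gene is not known, and whether they are Cdk8 mRNA was not tested. Nfatc2, Nfatc3, Nfatc4 and Nfat5 stayed under 100 CPM in EVs, while Cnnm1 reached 166 CPM and 7.73 times its median, above the ratios of Tmem132e and Rhbdl2 themselves. Pbld1, the nearest relative of Pbld2 by name, had 0 to 16 counts. On GRCm39, 21 genes next to or overlapping the 8 were matched by symbol to the count table. Of these 1, Appl2 beside 1500009L16Rik, reached 100 CPM in EVs, in 15 libraries and with a median of 142 CPM. Among the 12252 genes with enough counts in EVs, 1641 reached 100 CPM in some EV library. The 21 were not limited to genes with enough counts. Other annotated genes that overlap the 8 were not analysed here.

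Genes with a like course over the 18 EV libraries were sought by Pearson's r of log2 CPM, as a description over libraries that share totals, cultures and scaling. Rhbdl2 was most like Stox2 (r = 0.943), which ranged from 114 to 507 CPM, then Higd1a (0.819) and Cldn34c1 (0.813). Tmem132e was most like Unc5a (0.787), Gm11454 (0.786) and Trappc8 (0.786), with highest values of 2582, 83.4 and 4341 CPM. Otog was most like Zfp109 (0.741), 1500009L16Rik like Rpain (0.777), Pbld2 like Hmgcll1 (0.801), Med27 like Vta1 (0.70), Nfatc1 like Asmt (0.705) and Cnnm3 like Serpinb12 (0.597). Rpain, Hmgcll1, Vta1, Asmt and Serpinb12 had no library at 100 CPM, so they did not share the high values.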

How the data were processed

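RNA of EVs and cells was sequenced in 36 libraries, and per the labels and the study's methods the authors deduplicated and trimmed reads, aligned them with STAR to mm39 and assigned them to genes with HTSeq. The strand setting of HTSeq is not given in the sources used here, so reads of a gene and of an overlapping gene on the other strand cannot be told apart. The deposited values are raw counts per gene, used as they stand. A low count in EVs carries a larger counting error than in cells, given the totals. All libraries were used, and pregnancy sets are the replicates.

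The 8 genes, the gene lists and the tests were chosen with earlier results of these data known. Genes named are the 8, their relatives and markers from written lists, their nearest and overlapping genes, the 3 most correlated genes of each and the 10 genes with the largest ratio of highest to median EV CPM.

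Counts were analysed with edgeR 4.0.16 in R 4.3.3 (filterByExpr with minimum count 10 and minimum total 15, TMM, quasi-likelihood tests, Benjamini-Hochberg adjusted p under 0.05), with DESeq2 1.42.0 as an alternative, and correlations with scipy 1.17.1, which are given without p because EV levels chose the genes. The log2 CPM used a prior count of 1, and limits of 30 and 1000 CPM were tried beside 100. A count of 0 was taken to allow up to 3 counts. Scripts were tested on simulated data. Cell libraries of a culture at different doses deviated together (r 0.327 to 0.758 in 18 pairs), and female and male cell libraries come from the same pregnancies (r -0.398 to 0.477, 6 of 9 pairs above 0.1). EV and cell libraries of a pair come from the same culture (r -0.0733 to 0.149, 3 of 18 pairs above 0.1). Other alternatives were library totals, median-of-ratios factors, no filter, leaving out each pregnancy and blocks added or removed. Loci are from GENCODE on GRCm39, the same assembly as mm39.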

Additional observations from a re-analysis of the deposited data

Results flagged for a closer look

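Under TMM scaling Rhbdl2 in EVs was lower at 120 mg/dL than in control in every female culture and higher in every male culture. The median log2 difference was -0.77 in females (3F -0.52, 4F -9.31, 5F -0.77) and 1.92 in males (3M 1.92, 4M 0.03, 5M 1.93). The difference between the sexes was not tested, since EV values chose the gene. In 5M the change was from 3 to 8 counts, in 4M from 6259 to 6102 counts, and in 4F from 2887 to 3 counts. With library totals 4M was lower at 120 mg/dL (1388 against 1560 CPM), so the opposite directions hold under TMM scaling alone, and 3 against 8 counts in 5M is not a detectable difference at this depth.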

How the results depend on the processing

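None of the 8 genes was called in cells by ethanol or sex under any alternative run. The number of genes called over the whole table moved more: at 120 mg/dL DESeq2 called 4 and leaving out a pregnancy gave 0 to 2, at 320 mg/dL DESeq2 called 107 and leaving out a pregnancy gave 0 to 1, against 0 in both. By sex 7 became 1029 with 18 libraries taken as independent, 189 with DESeq2, 0 without set 4 (0 to 6 over the pregnancies left out) and stayed 7 with the pregnancy as a replicate block. For EVs against cells, 14527 became 22029 without a filter. With the scaling of library totals, the share called that was higher in EVs went from 46.6% to 35.4%, with median-of-ratios factors to 56.4%, and with DESeq2 to 56.6%. Under limits of 30 and 1000 CPM, 55 and 36 combinations of gene and EV library were high in place of 49, and 48 with library totals. The median of the 8 genes' highest over median EV CPM was 116, and 126 to 180 when a pregnancy was left out, highest without set 3. Adjusted permutation p were computed as planned for the relations to the library total and between EV and cell levels, but these use values that chose the genes and are not read as tests. Under 0.05 were 0 relations to the total (1 with library totals, 0 to 1 over pregnancies left out, 1 without set 4) and 1 between EV and cell levels (0 with library totals and with controls alone).

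Single estimates that changed sign were, for EVs against cells, Med27 (-1.62 with the pair as replicate block, -0.62 to 2.14 over the pregnancies left out) and Pbld2 (-0.54 to 3.05). For ethanol in cells, where none of the 8 was called, the range over pregnancies left out was at 120 mg/dL -1.13 to 0.20 for 1500009L16Rik and -1.36 to 0.13 for Rhbdl2. At 320 mg/dL it was -1.18 to 0.12 for 1500009L16Rik, -0.28 to 0.04 for Nfatc1, -2.45 to 4.35 for Pbld2 and -0.89 to 2.23 for Rhbdl2. By sex it was -1.27 to 0.36 for Med27, -0.13 to 0.14 for Nfatc1, -2.19 to 1.75 for Rhbdl2 and -0.32 to 0.42 for Tmem132e. By sex Nfatc1 was 0.0 with the replicate block, and Rhbdl2 and Tmem132e were 0.06 and 0.07 with 18 libraries. For the library total, r of the low libraries was -0.0165 for Med27 with library totals, and over pregnancies left out -0.665 to 0.666 for Med27, -0.336 to 0.00169 for Nfatc1, and 0.315 and 0.0252 for 1500009L16Rik without sets 3 and 5. Where fewer than 6 libraries of a band were left, no value was given. With controls alone, r of EV and cell levels was -0.06 for Tmem132e, 0.0685 for 1500009L16Rik, -0.136 for Pbld2, 0.176 for Med27 and 0.0208 for Nfatc1. The cause of these changes was not tested. Differences among EV libraries with 10 or fewer counts of a gene were not tested. Such counts carry a large counting error and are not read as differences.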

Other observations

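The 65 genes with a highest EV level of at least 100 CPM and 30 times their median were looked at after their values were seen. Of these, 29 were at 100 CPM or more in 1 EV library only, 26 in 2 to 5 and 10 in 6 or more. Of the 26 in 3 or more EV libraries, 0 were high at a single dose only, 3 in females only and 1 in males only, and Pbld2 and Nfatc1 are among these. A cell library was also at 100 CPM or more for 25 of the 65. The 10 with the largest ratio were Gm30068, Pbld2, Med27, Cks1brt, Usp21, Pamr1, Lvrn, Ttc39a, Gnb1l and Ip6k3. Gnb1l, which encodes a G protein beta-like protein, reached 22753 CPM in the EVs of 4F at 320 mg/dL and 12572 CPM in a cell library, and was high in 3 EV and 9 cell libraries. Pamr1 was high in 3 EV and 8 cell libraries. Lvrn, which encodes an aminopeptidase, was high in 4 EV libraries, up to 4197 CPM, and reached 1.33 CPM at most in cells. Gm30068 was high in 7 EV libraries, up to 10725 CPM, and reached 12.3 CPM at most in cells.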
